A study of Mus musculus with 8 samples.

Results

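The receptors through which serotonin, dopamine, noradrenaline and acetylcholine act on hippocampal cells were examined in mice that overexpressed miR-708-5p. They comprise 34 genes, chosen by name as 12 serotonin receptors, 4 dopamine receptors, 7 adrenergic receptors, 5 muscarinic acetylcholine receptors and 6 subunits of nicotinic acetylcholine receptors, among the 40659 genes of the count table. All 34 were found in the table. PolyA-RNA was sequenced from whole hippocampi of 8 male mice of the strain C57BL/6JRj. Of these, 4 had received the rAAV hp708, an adeno-associated virus in which the human synapsin promoter drives EGFP with a hairpin for miR-708-5p in its 3'UTR, and 4 had received hpCTL, the same kind of virus with a control hairpin. Both viruses were injected stereotactically into the dorsal and the ventral hippocampus at 7 to 8 weeks of age, recovery took 4 weeks, and the tissue is labelled as being from week 12 or 13. The synapsin promoter drives the hairpin in neurons, while the RNA came from all cells of the dissected tissue.

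The libraries held between 22606824 and 28462428 counts per mouse. Levels below are in CPM, the count of a gene scaled to a fixed library size after TMM normalisation. The microRNA's own precursor gene, Mir708, had 0 counts in each of the 8 libraries, and these polyA libraries thus hold no check of the overexpression. One animal, number 1602, carries conflicting labels: the sample list places it in hp708 as replicate 1, whereas the source data of a qPCR panel list it as hpCTL. It was kept in hp708, and the main counts of receptors are also given without it or with it as hpCTL. Each library stems from 1 mouse and from bulk tissue, in which fewer cells of a type and less RNA per cell cannot be told apart.

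Most of these receptors couple to G proteins. Those coupled to Gi/o lower cyclic AMP and open inwardly rectifying potassium channels, those coupled to Gs raise cyclic AMP through adenylyl cyclases, and those coupled to Gq activate phospholipase C and release calcium. The nicotinic receptors and Htr3a, in contrast, are cation channels that open when acetylcholine or serotonin binds. The hippocampus receives these transmitters from fibres of distant cell groups in the raphe nuclei, locus coeruleus, ventral midbrain and medial septum, while the receptors themselves are made by local pyramidal cells, granule cells, interneurons and glia.

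Since a microRNA binds mRNAs mainly through its seed, the sequences that tie these receptors to miR-708-5p are shown first. The mature microRNA, taken from the RefSeq table of build GRCm38.p6, is written with the seed (bases 2 to 8) in capitals.
mmu-miR-708-5p: aAGGAGCUuacaaucuagcuggg
Sites were searched on the sense strand in the longest annotated 3'UTR of each protein-coding gene of GRCm39, as AGCTCCTA (8mer), AGCTCCT without the final A (7mer-m8) and GCTCCTA without the first A (7mer-A1), each match being counted in 1 class only. Of the 34 receptors 32 had an annotated 3'UTR, and 11 of these 32 (34.4%) held a site, against 26.5% of the 14808 tested genes with a 3'UTR. The 3'UTRs of the receptors had a median length of 2148 bases, and those of the tested genes of 1865 bases. The 11 receptors were Htr1a, Htr1b, Htr1f, Htr2a, Htr4, Htr5a, Drd4, Adra1a, Adra1d, Chrna3 and Chrnb2, with 16 sites in all. Only Htr1f, with 2, and Chrnb2, with 1, held an 8mer. The windows of these 2 receptors, which held the strongest class of site, and that of Htr1b, a Gi/o-coupled serotonin receptor described below, read as follows on the strand of the gene (coordinates of GRCm39), with the seed match in capitals.
Htr1f, 8mer, chr16:64745673-64745698, minus strand: gatatagcaacagcAGCTCCTAttta
Htr1f, 8mer, chr16:64744216-64744241, minus strand: agtaagacaggctgAGCTCCTAcaat
Htr1f, 7mer-m8, chr16:64743361-64743386, minus strand: ataatgcaatatactAGCTCCTtcct
Chrnb2, 8mer, chr3:89663931-89663956, minus strand: ggagtcctcttgagAGCTCCTAcaat
Chrnb2, 7mer-m8, chr3:89663268-89663293, minus strand: gtgaacagtttgtccAGCTCCTttcc
Htr1b, 7mer-m8, chr9:81510878-81510903, minus strand: catttaggactgttaAGCTCCTttgc
A match of letters is a description of the annotated 3'UTR and does not show that the site is used.

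The level of each receptor was compared per length, as CPM per kb of its annotated exons, in the hpCTL mice. Chrm1, the Gq-coupled muscarinic receptor of forebrain pyramidal neurons, stood far above the rest at 30.4 ± 0.905 CPM per kb (SD, n = 4). Next came Htr1a, the main Gi/o-coupled serotonin receptor of hippocampal pyramidal cells, at 9.77 ± 0.591, Adra1d, a Gq-coupled receptor for noradrenaline, at 9.23 ± 0.580, Chrm3, another Gq-coupled muscarinic receptor, at 9.06 ± 0.275, and Chrnb2, the beta subunit of the common heteromeric brain nicotinic receptor, at 7.76 ± 0.0536 CPM per kb. The first 3 of these overlapped in their ranges over the hpCTL mice, and Chrnb2 lay below them. With the length of the longest transcript in place of all exons, Chrm3 came next after Chrm1 at 13.1, followed by Chrnb2 at 10.2 and Htr1a at 9.77 CPM per kb, so that the order among these 4 depended on the length used while Chrm1 stayed first at 32.0 CPM per kb.

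Within the serotonin receptors Htr1a was followed by Htr3a at 4.97 ± 0.875, Htr2c at 4.89 ± 1.22 and Htr5b at 3.26 ± 0.757 CPM per kb. With the length of the longest transcript, Htr2c at 9.32 came close to Htr1a at 9.77, and Htr3a stood at 5.00 CPM per kb. Htr1b, a Gi/o-coupled receptor, reached 2.33 ± 0.182, and Htr2a, Htr7, Htr5a, Htr4 and Htr6 lay between 1.27 and 2.24 CPM per kb. Htr1f stood at 0.217 ± 0.0220 and Htr1d at 0.0431 ± 0.0167 CPM per kb. Of the dopamine receptors the Gs-coupled Drd5, at 5.21 ± 0.214 CPM per kb, exceeded Drd1 at 1.23 ± 0.685 and Drd2 at 0.814 ± 0.352, and Drd4 stood at 0.0202 ± 0.0168 CPM per kb. The order of Drd5 above Drd1 is the reverse of what is known for the striatum, and Drd5 shares 54.8% of its exon bases with Gm26560 on the opposite strand. The strand setting of the counting is not given in the sources used here, so reads of the 2 genes cannot be told apart. The same limit holds for the levels of Adra1d, which shares 21.3% of its exon bases with Gm14285, of Chrnb2, which shares 16.2% with Adar, of Chrm2, which shares 16.1% with 9330158H04Rik, and of Adrb1, which shares 15.7% with Gm59077 and Gm59115.

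Of the adrenergic receptors, Adra1d was followed by the Gi/o-coupled Adra2c at 6.76 ± 0.918, the Gs-coupled Adrb1 at 3.78 ± 0.529 and the Gi/o-coupled Adra2a at 2.73 ± 0.312 CPM per kb. Adra1b stood at 0.725 ± 0.0165, Adra1a at 0.220 ± 0.0550 and Adra2b at 0.0342 ± 0.0239 CPM per kb. Among the muscarinic receptors Chrm4 reached 6.79 ± 1.52, Chrm5 1.13 ± 0.3997 and Chrm2 1.07 ± 0.179 CPM per kb. The annotated models of Chrm4 and Chrm5 hold no UTR, so their values rest on the coding length and cannot be set beside the others. Of the nicotinic subunits, Chrnb2 was followed by Chrna4, its usual alpha partner, at 4.11 ± 0.684, Chrna7, which forms homomeric receptors, at 1.53 ± 0.308, and Chrna5, an accessory subunit, at 0.789 ± 0.0591 CPM per kb. Chrnb4 and Chrna3, the pair found together in the medial habenula and in autonomic ganglia, stood at 0.102 ± 0.103 and 0.0594 ± 0.0144 CPM per kb.

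**Figure D1:**
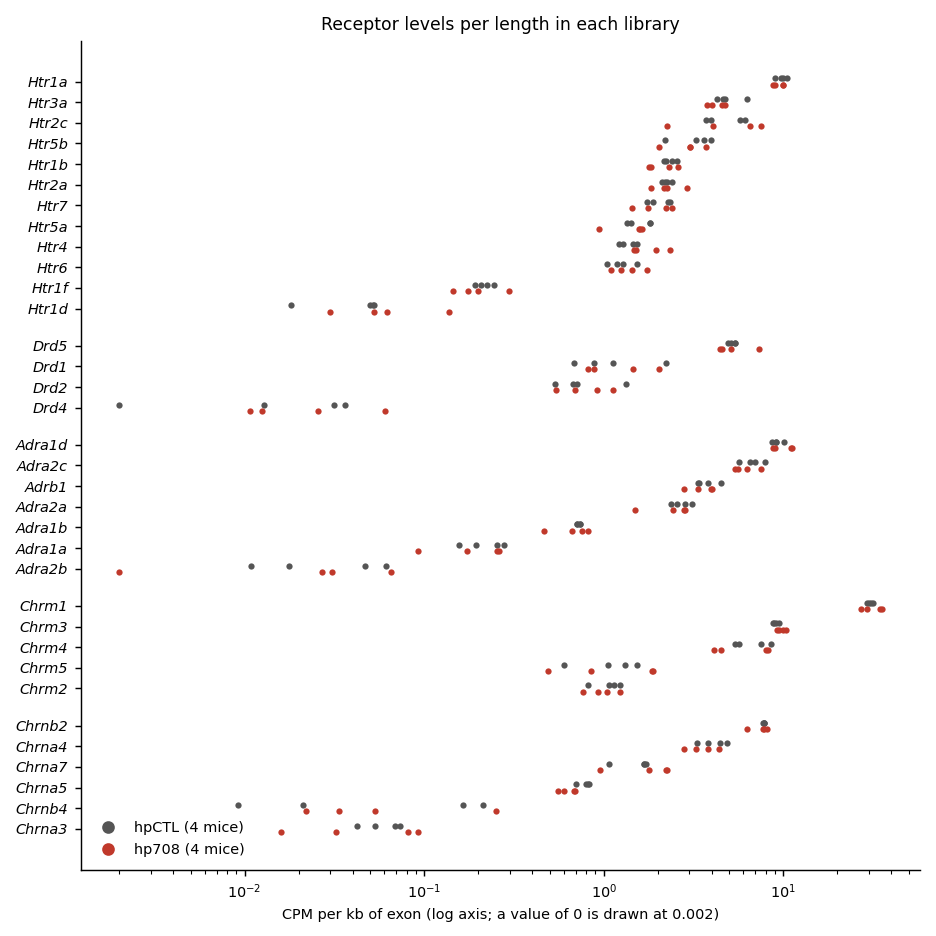
Level of each of the 34 receptor genes in CPM per kb of exon (log axis), one point per library, hpCTL in grey and hp708 in red, grouped by family and ordered by the hpCTL mean. Chrm1 lies highest, near 30.4 CPM per kb, and Htr1d, Drd4, Adra2b, Chrna3 and Chrnb4 lie lowest, while the points of the 2 groups overlap for most genes.

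The 5 receptors Htr1d, Drd4, Adra2b, Chrna3 and Chrnb4 were too low for the filter on low counts and were not tested. They had at most 27 counts in any library, and 2 of them were at 0 in a library. Drd4 had 3, 1, 3 and 0 counts in the hpCTL mice and 1, 2, 1 and 5 in the hp708 mice. Adra2b had 2, 1, 6 and 5 counts in hpCTL and 3, 6, 0 and 3 in hp708. A count of 0 allows up to 3 counts, which corresponds to 0.107 to 0.131 CPM in these libraries and covers counting error only. The other 29 receptors had at least 18 counts in every library.

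To learn whether the receptors differed between hp708 and hpCTL hippocampi, all 17252 genes that passed the filter were fitted together. None of the 29 tested receptors passed a Benjamini-Hochberg false discovery rate (FDR) of 0.05 in the quasi-likelihood test of edgeR, in a fit that also held 3 surrogate variables, which stand for unmeasured differences between libraries, where 0.0058% of all tested genes passed. The lowest FDR of a receptor was 0.514. An unadjusted p-value below 0.05 was seen for 2 of the 29 receptors, Htr4 and Chrna7, against 7.7% of all tested genes. The likelihood ratio test of edgeR and the Wald test of DESeq2, with 3 surrogate variables as well, also called 0 receptors at an FDR below 0.05, where 127 and 96 of all genes passed. Each found 1 receptor with an unadjusted p-value below 0.05, against 1037 and 866 of all genes. Of the 29 receptors 10 had a fitted value above 0 and 19 below 0. Their median log2 fold change was -0.02, while the median of all tested genes was -0.01 and 53.2% of them lay below 0. The median of the receptors was -0.08 with no surrogate variables, -0.13 without hp708 replicate 1 and -0.15 with that animal, whose labels conflict, counted as hpCTL. The standard error of the log2 fold change ranged from 0.05 for Chrnb2 to 0.43 for Drd1 and had a median of 0.14 over the receptors, which limits the differences that 4 mice per group can show.

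The count of 2 changed with the libraries included, among them that of the mouse with conflicting labels. Without hp708 replicate 1, 10 of the 29 receptors had an unadjusted p-value below 0.05, against 12.2% of all genes tested in that fit, and again 0 passed an FDR of 0.05. Of these 10, Htr2c, Htr5a, Adra1a, Adra2a, Chrm2, Chrm4, Chrna4 and Chrna5 had negative log2 fold changes, from -0.35 for Htr5a to -0.59 for Adra1a, and Htr4 and Chrm3 had positive ones of 0.54 and 0.17. With this animal counted as hpCTL, the receptors with an unadjusted p-value below 0.05 were Htr4, Htr5a, Adra1a, Chrm3 and Chrna4, 5 in number, against 11.9% of the genes tested in that fit, and none passed an FDR of 0.05. The lowest FDR of a receptor over these 2 fits was 0.079, for Htr4 without the animal.

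The receptors were also grouped by the pathway they feed. Of the 10 tested Gi/o-coupled receptors 9 had a fitted value below 0. Their log2 fold changes had a median of -0.10 and ran from -0.25 for Htr1f to 0.11 for Drd2, and none had an unadjusted p-value below 0.05. For Drd2 the value was 0.01 with no surrogate variables and -0.02 with animal 1602 as hpCTL. Of the 6 Gs-coupled receptors 3 lay above and 3 below 0, with a median of 0.04. Of the 8 Gq-coupled receptors 5 lay above and 3 below 0, with a median of 0.05. Of the 5 tested ion channel subunits 4 lay below 0, with a median of -0.12. These counts describe the 4 groups and were not tested. Over the 26 alternative fits 7 to 10 of the Gi/o-coupled receptors lay below 0. Their median ran from -0.18 without hpCTL replicate 4 to -0.03 without hpCTL replicate 2. The Gs median ran from -0.03 with the subiculum and cortex list described below as a covariate to 0.17 without hp708 replicate 2 and surrogate variables. The ion channel median ran from -0.25 without hp708 replicate 1 and surrogate variables to -0.02 without hpCTL replicate 2. The Gq-coupled receptors had no steady direction, with 1 to 5 of 8 below 0. Counting animal 1602 as hpCTL put 5 of the 8 Gq-coupled receptors below 0, with a median of -0.12, and without this library 4 of 8 were below 0, with a median of -0.06. By transmitter, 8 of 11 serotonin receptors, 1 of 3 dopamine receptors, 5 of 6 adrenergic receptors, 2 of 5 muscarinic receptors and 3 of 4 nicotinic subunits had fitted values below 0. With animal 1602 as hpCTL these counts were 8, 2, 5, 3 and 3 in the same order.

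**Figure D2:**
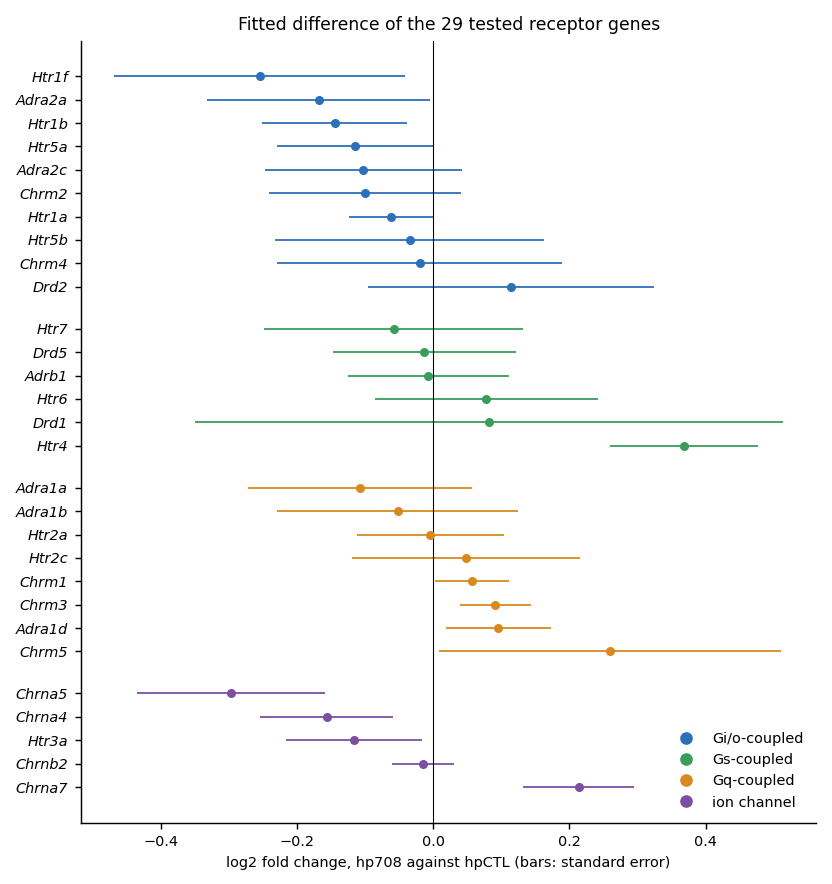
Log2 fold change of the 29 tested receptor genes, hp708 against hpCTL, from the fit of all genes with 3 surrogate variables, with bars of 1 standard error, grouped by coupling. Values run from -0.30 for Chrna5 to 0.37 for Htr4, and 9 of the 10 Gi/o-coupled receptors lie left of 0.

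Htr4, a Gs-coupled serotonin receptor of pyramidal and granule cells, had the lowest p-value. It had a CPM of 13.4, 11.2, 14.1 and 11.7 in hpCTL replicates 1 to 4 and of 13.8, 13.5, 17.9 and 21.5 in hp708 replicates 1 to 4. The hp708 replicates 3 and 4 lay above every hpCTL mouse, and the other two fell within the hpCTL range. The log2 fold change was 0.37 (SE 0.11), with an unadjusted p-value of 0.011 and an FDR of 0.514 in edgeR's quasi-likelihood test. An exact permutation test of the log2 CPM of the 8 mice, two-sided, gave p = 0.114, where 0.0286 is the smallest value that 4 against 4 allows. Htr4 has 1 seed site, a 7mer-m8, in a 3'UTR of 6840 bases.

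Chrna7, the subunit of the homomeric alpha-bungarotoxin-binding receptor, had a CPM of 10.96, 17.2, 17.5 and 17.1 in hpCTL and of 18.2, 9.70, 23.1 and 22.7 in hp708. In each group 1 mouse lay well below the others, and the highest values were those of hp708 replicates 3 and 4. The log2 fold change was 0.21 (SE 0.08, unadjusted p = 0.033, FDR 0.613 in edgeR's quasi-likelihood test), and the exact permutation test gave p = 0.571. Without hp708 replicate 1, with the surrogate variables estimated anew, the fitted log2 fold change of Chrna7 was 0.01. In fits with no surrogate variables it was 0.23 with that library and 0.24 without it. Other single libraries also moved the value, to 0.34 without hp708 replicate 2 and to 0.13 without hp708 replicate 4 or hpCTL replicate 3, and with animal 1602 as hpCTL it was 0.07.

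Chrna5 was the only tested receptor whose groups did not overlap, which 1.51% of all tested genes showed. It had a CPM of 4.53, 5.38, 5.29 and 5.14 in hpCTL and of 4.39, 3.87, 4.48 and 3.59 in hp708. Every hp708 mouse was lower than every hpCTL mouse, although hpCTL replicate 1 and hp708 replicate 3 lay close together. The log2 fold change was -0.30 (SE 0.14, unadjusted p = 0.068, FDR 0.684 in edgeR's quasi-likelihood test). The exact permutation test gave p = 0.0286, the smallest it can reach here. Separated groups of 4 always give this value, so it only restates the lack of overlap for which Chrna5 was picked. Chrna5 lies on chromosome 9 from 54888164 to 54918184 of GRCm39 and shares 790 exon bases, or 12.2% of its own, with Chrna3 on the opposite strand. Chrna3 itself had 8, 9, 9 and 6 counts in hpCTL and 12, 4, 2 and 12 in hp708, few beside the 87 to 137 counts of Chrna5.

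The next receptors by p-value were Chrm3, Chrna4 and Htr1b. Chrm3 had a CPM of 58.9, 55.8, 54.9 and 56.9 in hpCTL and of 57.7, 62.7, 59.0 and 64.6 in hp708, with a log2 fold change of 0.09 (SE 0.05, unadjusted p = 0.126, FDR 0.739 in edgeR's quasi-likelihood test). Chrna4 had a CPM of 17.4, 25.5, 19.98 and 23.1 in hpCTL and of 22.8, 14.6, 19.8 and 17.0 in hp708, with a log2 fold change of -0.16 (SE 0.10, unadjusted p = 0.153, FDR 0.754 in edgeR's quasi-likelihood test). This value of Chrna4 ran from -0.45 without hp708 replicate 1 to -0.02 without hpCTL replicate 2 when single libraries were left out. For both genes the groups overlapped, for Chrm3 only through hp708 replicate 1, which fell below hpCTL replicate 1, and for Chrna4 over most of their ranges. Htr1b had a CPM of 12.2, 11.3, 10.5 and 10.3 in hpCTL and of 10.95, 12.3, 8.44 and 8.72 in hp708. Here hp708 replicate 2 was the highest of all mice and hp708 replicates 3 and 4 were the lowest. The log2 fold change of Htr1b was -0.14 (SE 0.11, unadjusted p = 0.215, FDR 0.793 in edgeR's quasi-likelihood test), and was -0.23 without hpCTL replicate 4, -0.05 without hp708 replicate 3 and surrogate variables, and -0.07 with the subiculum and cortex list described below as a covariate. For Htr1b, 18.9% of the exon bases are shared with D430036J16Rik on the opposite strand.

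**Figure D3:**
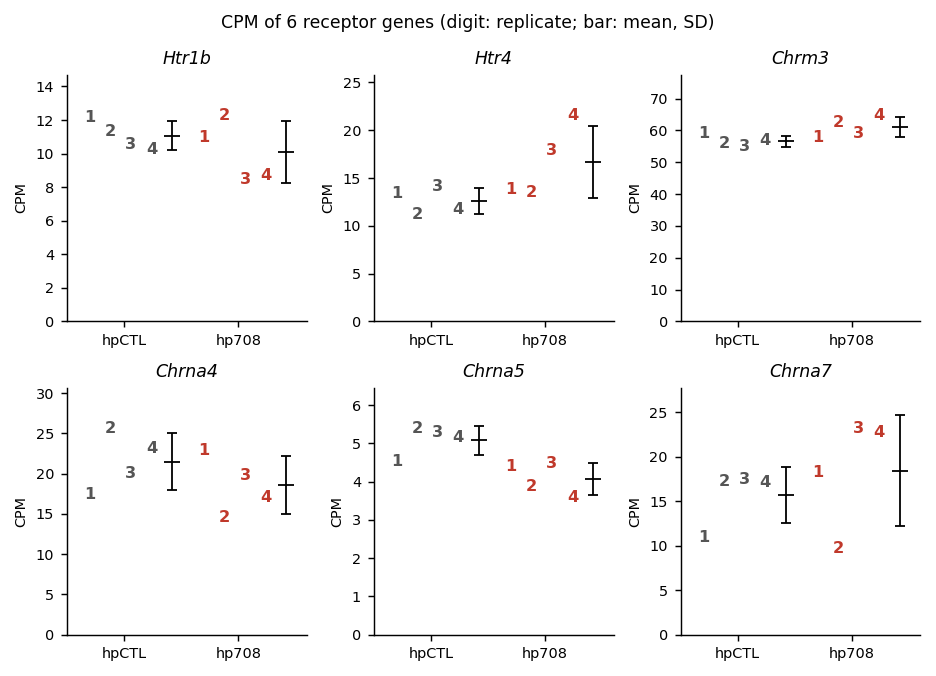
CPM of Htr1b, Htr4, Chrm3, Chrna4, Chrna5 and Chrna7 in each mouse, the digit being the replicate number within hpCTL (grey) or hp708 (red), with the mean and SD of the 4 mice beside the digits. The 2 groups separate for Chrna5, and for Htr4 hp708 replicates 3 and 4 lie above all hpCTL mice.

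For the receptor with the highest level per length of each family, the 2 groups overlapped. Chrm1 had a CPM of 252, 246, 240 and 236 in hpCTL and of 234, 216, 276 and 285 in hp708, so that the hp708 mice lay on both sides of the hpCTL mice. Htr1a had a CPM of 40.4, 44.6, 46.8 and 43.5 in hpCTL and of 44.4, 40.3, 39.5 and 44.7 in hp708. Adra1d had a CPM of 38.0, 41.9, 36.2 and 37.7 in hpCTL and of 37.3, 36.7, 45.8 and 46.6 in hp708. In Chrm1 and Adra1d the hp708 replicates 3 and 4 were the 2 highest of all mice. Chrnb2 was the steadiest receptor in hpCTL, with a CPM of 65.8, 65.6, 64.9 and 65.9, and in hp708 it stood at 65.9, 53.3, 68.7 and 65.6. Drd5 had a CPM of 17.0, 15.6, 16.9 and 16.2 in hpCTL and of 14.4, 14.0, 16.1 and 23.2 in hp708. For Chrnb2 a single hp708 mouse, replicate 2, was low, and for Drd5 a single one, replicate 4, was high.

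The lowest values fell most often on hp708 replicates 2 and 4, a tally that does not measure the spread within hp708. Over the 29 tested receptors, hp708 replicate 2 had the lowest CPM of all 8 mice for 11 and hp708 replicate 4 for 8, while hp708 replicate 4 also had the highest CPM for 8. In hp708, replicate 3 was highest for 4 and lowest for 4, and in hpCTL, replicates 1 and 2 were highest for 5 and 6. For Htr2a hp708 replicate 4 was highest, at 19.2 CPM where the other mice had 12.1 to 15.9, and for Adra2a it was lowest, at 7.23 CPM where the others had 11.5 to 15.0. The animal with conflicting labels, hp708 replicate 1, was highest for 1 receptor and lowest for none.

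Receptors with a seed site for miR-708-5p were set beside those without. Of the 11 receptors with a site 9 were tested, of which 7 had a fitted value below 0 and 2 above, with a median log2 fold change of -0.06. Of the 18 tested receptors with a 3'UTR and no site, 11 lay below 0 and 7 above, with a median of -0.02. The order of these 2 medians turned round in other fits, with -0.05 for receptors with a site against -0.09 for those without when no surrogate variables were used, and with -0.09 against -0.16 when animal 1602 was counted as hpCTL. Over all tested genes the median was 0.00 for the 3927 with a site and -0.01 for the 10881 without. Htr1f, whose 3 sites are printed above, had the lowest value of the receptors with a site in the fit with 3 surrogate variables. It had a CPM of 1.07, 1.36, 1.15 and 1.24 in hpCTL and of 0.979, 1.65, 0.810 and 1.12 in hp708. Its log2 fold change was -0.25 (SE 0.21, unadjusted p = 0.271, FDR 0.826 in edgeR's quasi-likelihood test), and the groups overlapped, hp708 replicate 2 being the highest of all mice. For Htr1f the value was -0.08 with no surrogate variables and -0.01 with animal 1602 as hpCTL, and in both of these fits Adra1a was lower, at -0.17 and -0.53. Chrnb2, with an 8mer and a 7mer-m8, had a log2 fold change of -0.02 (SE 0.05), and Htr4, with 1 site, was the receptor with the highest value.

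A dissected hippocampus can carry tissue from its surroundings, and several receptors are known to be strong there. The choroid plexus, the epithelium that makes cerebrospinal fluid, is rich in Htr2c. Its 10 markers, among them Ttr, Folr1, Kl, Aqp1, Clic6 and Otx2, had a mean log2 CPM of 1.07, 4.68, 2.13 and 5.02 in hpCTL and of 5.48, 5.77, 1.97 and 2.29 in hp708. The 8 libraries therefore fell into a cluster of 4 with a high list mean, from 4.68 to 5.77, and a cluster of 4 with a low one, from 1.07 to 2.29, each with 2 mice of either group. Ttr, which encodes transthyretin, ranged from 1485 to 4106 CPM in the first cluster and from 25.6 to 124 CPM in the second.

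Htr2c followed these clusters. It had a CPM of 36.9, 53.5, 34.8 and 57.3 in hpCTL and of 70.1, 60.9, 37.8 and 21.1 in hp708. In the cluster with a high list mean Htr2c lay between 53.5 and 70.1 CPM, and in the other between 21.1 and 37.8 CPM, without overlap. Between the treatment groups the list mean differed by 0.65 on the log2 scale (exact permutation p = 0.543). Within the first, the 2 hp708 mice were above the 2 hpCTL mice, and within the second they were the highest and the lowest. No correlation over all 8 libraries is given because they form separate clusters, and 4 libraries a cluster are too few for one within. Between the treatment groups Htr2c had a log2 fold change of 0.05 (SE 0.17, FDR 0.961 in edgeR's quasi-likelihood test), and the part of choroid plexus tissue in its spread was not tested. Without hp708 replicate 1, one of the libraries with a high list mean, the log2 fold change of Htr2c was -0.45 (SE 0.11, FDR 0.140 in edgeR's quasi-likelihood test).

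The subiculum and the deep cortical layers next to it express Chrna5 and Chrna4. The list of 13 markers of these regions had a mean log2 CPM of 3.53, 4.03, 3.81 and 4.04 in hpCTL and of 4.09, 3.22, 3.03 and 2.99 in hp708. The difference was -0.52 on the log2 scale (exact permutation p = 0.143, Benjamini-Hochberg p = 0.714 over 15 marker lists). The 3 hp708 mice other than replicate 1 lay below every hpCTL mouse in this list. Of its members Nts, Tshz2, Slc17a6, Cplx3, Fezf2 and Tbr1, markers of subicular or deep-layer projection and subplate neurons, had negative log2 fold changes with unadjusted p-values below 0.05 and FDR values from 0.382 to 0.525 in edgeR's quasi-likelihood test. Of all tested genes 7.7% had such a p-value. Among the other members, Syt6 lay above 0, at 0.09, and Tle4 stood at -0.01. Fn1, Rprm, Foxp2, Nxph4 and Ccn2 were negative, with unadjusted p-values from 0.106 to 0.545 in the same test. Chrna5 was higher where this list was higher, with a Pearson r of 0.75 over the 8 libraries (permutation p = 0.038, 0.141 after adjustment over the 11 pairs computed) and a Spearman rho of 0.52 (permutation p = 0.197, adjusted 0.360). Leaving out the 2 libraries farthest from the list's median gave r = 0.70. These values pool the 2 groups, and both Chrna5 and the list were lower in hp708. Within the groups r was 0.85 in hpCTL and 0.48 in hp708, with 4 mice each. With the list mean as a covariate in place of the surrogate variables, a setting added after seeing the data that changed 2 choices at once, none of the 29 receptors had an unadjusted p-value below 0.05 in edgeR's quasi-likelihood test, where 315 of all genes did. The log2 fold changes were then 0.17 for Htr4, 0.24 for Chrna7 and -0.22 for Chrna5. The part of subicular or cortical tissue in the receptor values was not tested.

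Htr3a, the serotonin-gated channel of a class of GABAergic interneurons, was compared with the list of 11 interneuron markers, and the Pearson r of this pair was the highest of those given here. It had a CPM of 14.9, 11.02, 10.2 and 11.3 in hpCTL and of 10.9, 9.57, 11.4 and 8.96 in hp708, and the list mean was highest in hpCTL replicate 1, at 5.68, and lowest in hp708 replicate 2, at 5.37 log2 CPM. Pearson's r was 0.90 (permutation p = 0.0052, 0.057 after adjustment over the 11 pairs) and 0.80 without the 2 farthest libraries, and Spearman's rho was 0.67 (permutation p = 0.083, adjusted 0.305). Replicate 1 of hpCTL was the highest in both measures. The interneuron list differed by -0.12 between groups (exact permutation p = 0.086, Benjamini-Hochberg p = 0.643 over the lists), and Htr3a itself by a log2 fold change of -0.12 (SE 0.10, FDR 0.831 in edgeR's quasi-likelihood test). The list difference was taken without surrogate variables, and without them Htr3a stood at -0.22. With animal 1602 as hpCTL, Htr3a stood at -0.21.

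**Figure D4:**
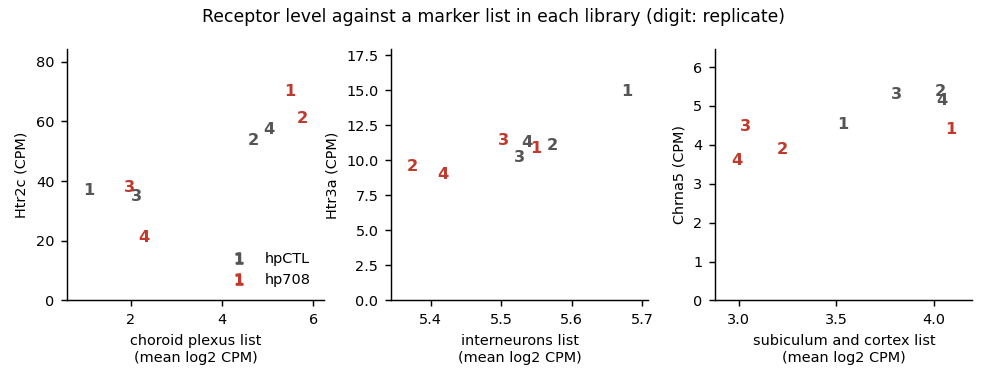
CPM of Htr2c, Htr3a and Chrna5 (vertical axes) against the mean log2 CPM of the choroid plexus, interneuron and subiculum and cortex lists (horizontal axes), each digit being 1 library with its replicate number, hpCTL grey and hp708 red. Htr2c splits into 4 libraries between 53.5 and 70.1 CPM and 4 between 21.1 and 37.8 CPM, each set with 2 mice of either group.

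The medial habenula, which borders the hippocampus, is the brain region best known for Chrna3, Chrnb4 and Htr5b. Its defining transcription factor Pou4f1 had 0 counts in 5 of the 8 libraries and at most 4 in any, in hp708 replicate 1, and the list of 6 markers had a mean between 0.89 and 1.47 log2 CPM. Chrnb4 had 1, 19, 2 and 17 counts in hpCTL and 27, 3, 2 and 5 in hp708. Its 3 highest libraries, hpCTL replicates 2 and 4 and hp708 replicate 1, were also the 3 highest of the subiculum and cortex list, at 4.03, 4.04 and 4.09 log2 CPM, a parallel that was noticed after the values were seen. With the habenula list, r was 0.38 for Chrnb4, 0.69 for Chrna3 and 0.59 for Htr5b over the 8 libraries, and rho was 0.52, 0.81 and 0.31 in the same order. The rho of Chrna3 had a permutation p of 0.022 (adjusted 0.202), and none of these values had an adjusted permutation p-value below 0.05. Leaving out 1 library took the r of Htr5b as low as 0.20, and the r of Chrna3 to between 0.60 and 0.81. Within the groups, the r of Chrna3 was 0.03 in hpCTL and 0.78 in hp708, with 4 mice each. The pairs of Chrna4 and Chrm2 with the thalamus list, of Drd1 and Drd2 with the striatum list and of Htr1a with the CA1 list had r between -0.19 and 0.54, and their adjusted permutation p-values were 0.311 or higher. Within groups of 4 mice, r differed in sign for Htr1a (-0.94 in hpCTL, 0.94 in hp708), Chrna4 (0.53, -0.82) and Drd1 (-0.67, 0.08). For Chrm2 and Drd2 both were positive. Without the 2 libraries farthest from the list's median, the r of Drd1 was -0.79.

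Drd1 had the highest standard error of the tested receptors. It had a CPM of 5.11, 3.11, 10.1 and 4.02 in hpCTL and of 6.60, 4.04, 3.71 and 9.29 in hp708. The highest mice were hpCTL replicate 3 and hp708 replicate 4, and the groups overlapped. The log2 fold change of Drd1 was 0.08 (SE 0.43, FDR 0.976 in edgeR's quasi-likelihood test). It was -0.23 with animal 1602 as hpCTL and 0.43 where each library had to hold at least 10 counts of a gene. Of the other lists, CA1, CA2 and CA3 pyramidal neurons, dentate granule cells, astrocytes, microglia, oligodendrocytes, endothelium and mural cells, medial habenula, thalamus, striatum and interferon response, none differed between groups with an unadjusted permutation p-value below 0.05, and the CA3 list came closest at 0.057, with 0.21 more in hp708 on the log2 scale.

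The genes that supply the transmitters and carry the receptors' signals were examined as 5 lists with 93 genes, 75 of them tested. None passed an FDR of 0.05, and 10 had an unadjusted p-value below 0.05 in edgeR's quasi-likelihood test, against 7.7% of all tested genes, 4 with positive and 6 with negative log2 fold changes. In the list of G proteins and effectors 3 of 32 tested genes were in each direction, while the lists of desensitisation and RGS proteins (15 tested), of nicotinic receptor assembly and Ly6 modulators (9 tested), of transmitter synthesis, transport and breakdown (13 of 22 tested) and of other receptors of the same families (6 of 15 tested) held 1 each. The medians of the 5 lists lay between -0.09 for the nicotinic modulators and 0.05 for the transmitter list.

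Several genes that mark the cell bodies of transmitter-making neurons had few counts. The serotonin transporter Slc6a4 had 0 to 4 counts in a library, the dopamine transporter Slc6a3 1 to 9, the noradrenaline transporter Slc6a2 0 to 2, and Chat, which makes acetylcholine, 0 to 4. Higher were Dbh, which makes noradrenaline, with 4 to 22 counts, the choline transporter Slc5a7 with 15 to 24, Th, which starts dopamine synthesis, with 12 to 28, and Tph2, which starts serotonin synthesis in neurons, with 25 to 48. Slc18a2, the vesicular transporter for monoamines, had a CPM of 3.07, 2.23, 1.89 and 1.54 in hpCTL and of 2.54, 5.96, 2.52 and 4.87 in hp708. Here hp708 replicates 2 and 4 were higher than every hpCTL mouse and the other two were not, with a log2 fold change of 0.67 (SE 0.22, unadjusted p = 0.017, FDR 0.561 in edgeR's quasi-likelihood test) that became 1.21 without hp708 replicate 1.

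Among the effectors, 3 subunits of the potassium channels that Gi/o-coupled receptors open were tested, and the 2 with an unadjusted p-value below 0.05, Kcnj6 and Kcnj9, had fitted values of opposite sign. For Kcnj3, which encodes GIRK1, the log2 fold change was 0.03 (SE 0.06, unadjusted p = 0.623 in edgeR's quasi-likelihood test). Kcnj6, which encodes GIRK2, had a CPM of 15.9, 28.99, 33.6 and 27.6 in hpCTL and of 31.2, 23.5, 40.8 and 51.8 in hp708, with a log2 fold change of 0.38 (SE 0.06, unadjusted p = 0.000347, FDR 0.294 in edgeR's quasi-likelihood test). Kcnj9, which encodes GIRK3, had a CPM of 100.5, 105.9, 100.8 and 100.1 in hpCTL and of 111, 66.3, 87.0 and 71.8 in hp708, with a log2 fold change of -0.19 (SE 0.07, unadjusted p = 0.021, FDR 0.576 in edgeR's quasi-likelihood test), which became -0.50 without hp708 replicate 1 and -0.46 with that animal as hpCTL. In Kcnj9 the hpCTL mice lay close together, hp708 replicate 1 was above them and the other hp708 mice were below. With other tools Kcnj6 had an FDR of 0.006 in edgeR's likelihood ratio test and of 0.010 in DESeq2, but with no surrogate variables its unadjusted p was 0.107 and its FDR 0.999 in edgeR's quasi-likelihood test. Without hp708 replicate 4, its highest mouse, Kcnj6 had a log2 fold change of 0.22. For Kcnj9, edgeR's quasi-likelihood test gave an FDR of 0.028 and of 0.024 in the fits without hp708 replicate 1 and with it as hpCTL. Of the 8 tested adenylyl cyclases, which make cyclic AMP, 4 had fitted values above 0 and 4 below, and the 2 with an unadjusted p-value below 0.05 in that test, Adcy9 and Adcy8, lay on opposite sides.

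Adcy9 had a CPM of 38.6, 66.3, 77.7 and 67.4 in hpCTL and of 77.4, 51.4, 81.3 and 103 in hp708 (log2 fold change 0.28, SE 0.07), and Adcy8, a calcium-stimulated form, 16.7, 18.6, 20.1 and 19.8 in hpCTL and 18.2, 16.7, 12.8 and 13.8 in hp708 (log2 fold change -0.31, SE 0.10). In both genes the groups overlapped. For Adcy9 the value was 0.16 without hp708 replicate 4, and with no surrogate variables its unadjusted p was 0.198 in edgeR's quasi-likelihood test. The value of Adcy8 ran from -0.38 to -0.10 over the 10 alternative fits that left out no library. Plcb2, a phospholipase C, had a CPM of 6.57, 10.3, 12.0 and 11.4 in hpCTL and of 6.67, 10.9, 5.71 and 11.2 in hp708 (log2 fold change -0.46, SE 0.14). Rgs16, which speeds up the deactivation of Gi/o and Gq proteins, had a CPM of 8.14, 8.88, 8.61 and 8.34 in hpCTL and of 7.43, 8.00, 6.18 and 5.37 in hp708 (log2 fold change -0.35, SE 0.13). Over the same 10 fits its value ran from -0.39 to -0.21. The groups of Rgs16 did not overlap, each hp708 mouse being lower than each hpCTL mouse, which was so in either direction for 1.51% of all tested genes and for 2 of the 75 tested pathway genes. The other was Prkar2b, a regulatory subunit of protein kinase A, with 30.3 to 33.7 CPM in hpCTL and 28.8 to 29.5 CPM in hp708 (log2 fold change -0.08, SE 0.06). Ly6e, a relative of the proteins that tune nicotinic receptors, had a CPM of 317, 295, 309 and 336 in hpCTL and of 239, 320, 254 and 325 in hp708 (log2 fold change -0.23, SE 0.08). The FDR of Adcy9, Adcy8, Plcb2, Rgs16 and Ly6e ranged from 0.386 to 0.594 in edgeR's quasi-likelihood test, that of Prkar2b was 0.775, and hp708 replicates 1 and 3 were the 2 lowest hp708 mice in Plcb2 and Ly6e. Leaving out hp708 replicate 1 gave a log2 fold change of -0.01 for Ly6e and of -0.15 for Plcb2, and Plcb2 stood at -0.13 with animal 1602 counted as hpCTL and at -0.22 with no surrogate variables. The interferon response list had a mean of 3.09 and 3.32 log2 CPM in hp708 replicates 1 and 3 against 4.44 and 4.35 in replicates 2 and 4, and it was as low as 3.27 in hpCTL replicate 1, whose Ly6e was 317 CPM. These 3 libraries were also the 3 lowest in Plcb2 and in the list of 8 microglia markers, with a mean of 6.17 log2 CPM in hpCTL replicate 1 and of 5.87 and 6.06 in hp708 replicates 1 and 3 against 6.37 to 6.68 in the other mice. The part of microglia in the values of Plcb2 was not tested. Ly6e is itself induced by interferon, and the part of that response in its values was not tested.

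**Figure D5:**
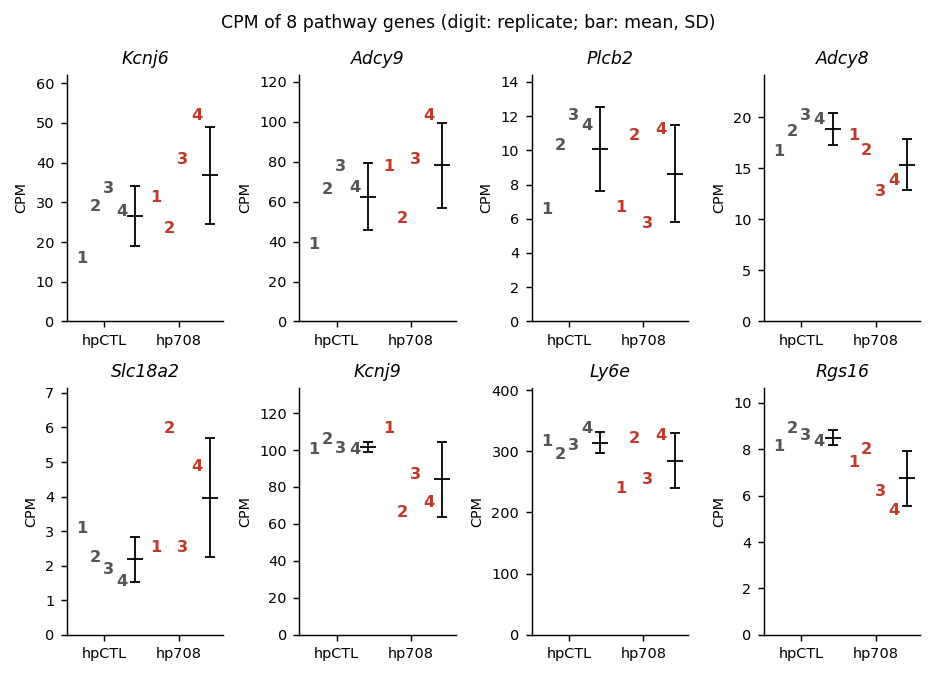
CPM of the 8 pathway genes with the lowest p-values in each mouse, the digit being the replicate number within hpCTL (grey) or hp708 (red), with the mean and SD of the 4 mice beside the digits. The groups overlap for 7 of the 8 genes and separate for Rgs16.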

How the data were processed

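Hippocampal polyA-RNA libraries of 8 mice, 4 in each of the groups hpCTL and hp708, were compared. The authors mapped reads to GRCm39 with STAR 2.7.8a, counted them per gene with featureCounts 1.6.4 and deposited the raw counts, 1 column per animal, without normalization. Strand and multi-mapping settings are not given in the sources used here. Groups follow the sample labels, and all columns were matched by animal number. Gene names, exon lengths and 3'UTRs came from GENCODE M39, a later release than the authors' on the same build, which named 39641 of the 40659 identifiers.

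Genes were kept by filterByExpr and fitted with edgeR 4.0.16 in R 4.3.3 (quasi-likelihood test, fitted as in edgeR 3), with TMM library sizes and 3 surrogate variables that svaseq (sva 3.50.0) took from the filtered counts, and p-values were adjusted by the Benjamini-Hochberg method over the 17252 genes kept. The methods of the study name the likelihood ratio test, which was an alternative, as was DESeq2 1.42.0. Standard errors were obtained from the fold change and the test statistic. Log2 CPM used a prior count of 2. Single values were compared by exact two-sided permutation of the 8 libraries. Libraries of 1 group differed by a chi-square per degree of freedom of 10.0 to 46.2, so none was a copy of another. The functions were tested on simulated counts.

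The receptors and all gene lists were chosen with earlier results of these data known. Values in each library and statistics are given for receptors with an unadjusted p-value below 0.05 or with groups that do not overlap, filled up to 6 by p-value. Values in each library are also given for the highest receptor of each family and for receptors of the marker pairs discussed, and of the pathway lists the 8 with the lowest p-values are named. Htr1f, Drd1, Drd4, Adra2b, Slc6a2, Slc6a3, Slc6a4, Chat, Dbh, Slc5a7, Th, Tph2, Kcnj3 and Prkar2b are given in addition and were chosen after their values were seen. Alternative fits used another tool, test, filter or scaling, other or no surrogate variables, a replicate block, the other group for animal 1602, or left out 1 library in turn.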

Additional observations from a re-analysis of the deposited data

Results flagged for a closer look

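Over the tested receptors and the choroid plexus and subiculum and cortex lists, 62 groups of 4 mice were checked for a mouse far from the other 3, and 2 were found where chance gives 3.1. Htr5a, a Gi/o-coupled serotonin receptor, had 8.26 CPM in hp708 replicate 2, while the other hp708 mice had 13.8 to 14.5 CPM. Chrna7 had 10.96 CPM in hpCTL replicate 1, while the other hpCTL mice had 17.1 to 17.5 CPM.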

How the results depend on the processing

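No receptor passed an FDR of 0.05 in any of the 26 alternative fits. The number of receptors with an unadjusted p-value below 0.05 was 2 in the fit reported above, 1 with the likelihood ratio test, 1 with DESeq2, 6 where each library had to hold at least 10 counts of a gene, 5 with animal 1602 as hpCTL, and 0 to 10 when a library was left out in fits with and without surrogate variables, the 10 being reached without hp708 replicate 1. In the fits with 3 surrogate variables it was 6 without hpCTL replicate 1 or hp708 replicate 2, and 1 without hpCTL replicate 3 or 4 or hp708 replicate 4. With surrogate variables from scaled counts it was 7, and with the subiculum and cortex list as a covariate 0, both settings chosen after seeing the data. Over all genes, 1037 had an unadjusted p-value below 0.05 with the likelihood ratio test, 866 with DESeq2 and 907 with the minimum count. The number was 2099 with animal 1602 as hpCTL and 315 with the list as a covariate. With a library left out and 3 surrogate variables, it ran from 520 without hpCTL replicate 3 to 2119 without hp708 replicate 1. It was 1692 without hpCTL replicate 1 and 2097 without hp708 replicate 2. Of the pathway genes, 10 had an unadjusted p-value below 0.05 in the fit reported, 3 without surrogate variables, 16 with animal 1602 as hpCTL, 0 with the list as a covariate and 1 to 20 when a library was left out. With 3 surrogate variables this number was 17 without hpCTL replicate 1 or hp708 replicate 2, 20 without hp708 replicate 1, 6 without hpCTL replicate 2 and 3 without hpCTL replicate 3. At an FDR below 0.05 there were 0 pathway genes, but 1 under the likelihood ratio test, 1 under DESeq2, 1 with animal 1602 as hpCTL, and 0 to 1 when a library was left out. With a replicate block and no surrogate variables 1 receptor and 0 pathway genes had an unadjusted p-value below 0.05, where 272 of all genes did. Same-numbered mice share only a number, as their deviations correlated between -0.04 and 0.02. The log2 fold change of Chrna4 turned to 0.028 with the list as a covariate. The difference in the choroid plexus list turned to -0.34 with animal 1602 as hpCTL and ran from -0.070 without hpCTL replicate 1 to 1.28 without hp708 replicate 3. The cause of these changes was not tested. The count of all genes called at an FDR below 0.05 was 1 in the fit reported, 127 with the likelihood ratio test, 96 with DESeq2, 6 without a filter, 29 with animal 1602 as hpCTL and 56 without hp708 replicate 1, and with an unadjusted p-value below 0.05 it was 1328 in the fit reported, 312 without surrogate variables and 2288 with those from scaled counts. The 19 receptors with a fitted value below 0 became 15 to 21 over these fits, and the median log2 fold change of all tested receptors, -0.02 in the fit reported, stayed below 0 and was lowest, at -0.15, with animal 1602 as hpCTL.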
